A study of Rattus norvegicus with 20 samples.

Results

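The epithelial sodium channel (ENaC) and the aldosterone pathway around it were followed through 8 gene symbols, taken from the count table by name. These were the channel subunits Scnn1a, Scnn1b and Scnn1g, the mineralocorticoid receptor Nr3c2, its guard enzyme Hsd11b2, and the targets and effectors Sgk1, Nedd4l and Tsc22d3. They matched 9 of 32545 rows, because Tsc22d3 is the symbol of 2 Ensembl genes. Each of the 9 rows passed the filter on low counts, which left 14472 genes.

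Aldosterone crosses into the principal cells of the collecting duct and binds the mineralocorticoid receptor, which also binds glucocorticoids. Hsd11b2 inactivates glucocorticoids in these cells and so leaves the receptor to aldosterone. The active receptor raises transcription of the ENaC alpha subunit, of the kinase Sgk1 and of Tsc22d3, which encodes GILZ. Sgk1 phosphorylates the ubiquitin ligase Nedd4-2, the product of Nedd4l, and so keeps ENaC in the apical membrane. Vasopressin acts on the same cells and is known to raise both water permeability through Aqp2 and sodium entry through ENaC.

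The tissue was cortical collecting duct, dissected from male Sprague-Dawley rats aged 5 weeks, with 1 library per rat. Every rat, controls included, was implanted with a minipump that gave DDAVP, an agonist of the vasopressin V2 receptor, at 5 ng per hour. Water-loaded rats took in 50 mL of water per day with a gelled diet and control rats 25 mL per day. Ducts were taken on day 1, 2 or 4, from 3, 4 and 3 water-loaded rats and from as many control rats, 20 in all. Members of the pathway were compared between water-loaded and control rats to ask whether its transcripts move when the kidney escapes from vasopressin.

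Depth was 33527913 to 74868598 reads on genes per library, and a count of 3 came to 0.0401 to 0.0895 CPM, the unit of counts scaled by library total. Amplified reads carry no molecular identifiers, so that floor covers counting error only. The summed level of 8 principal cell markers was 11290 to 21750 CPM with the water load and 21910 to 65040 CPM without it, most of it Aqp2, and Elf5 was at 0 in 12 libraries. Intercalated cell markers summed to 7233 to 10990 CPM with the water load and 6701 to 11750 CPM without it. Markers of the distal convoluted tubule summed to 0.416 to 13.25 CPM and 0.0427 to 42.21 CPM, with Pvalb at 0 in each of the 20 libraries. Connecting tubule markers, nearly all Calb1, summed to 196.9 to 13000 CPM with the water load and 85.73 to 6421 CPM without it (medians 986.1 and 560.1 CPM), and connecting tubule cells are known to carry ENaC. They were high in day 1 water-loaded rat 2, at 13000 CPM, in day 2 water-loaded rat 4, at 5624 CPM, and in day 1 control rat 3, at 6421 CPM. Day 1 water-loaded rat 2 stood apart in other markers too, with 5946 CPM of proximal tubule markers, where the medians were 81.63 CPM with the water load and 138.9 CPM without it. Day 2 control rat 1 held 2251 CPM of proximal tubule markers, and day 1 control rat 1 held 1562 CPM of fibroblast and pericyte markers. The part of these cells in the members' values was not tested. Day 1 control rat 1 detected the fewest genes, 12665 of a range that reached 15266. In whole ducts, fewer cells of a type and less RNA per cell cannot be told apart.

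No member passed the test for the water load. Over the average of the days, 0 of 9 rows were called by edgeR's quasi-likelihood test at an adjusted p under 0.05, where 0.159% of all tested genes were called. By day, 0 of 9 were called on day 1, day 2 and day 4, where edgeR called 0% of all genes on each day. DESeq2 called 1126, 77 and 319 genes on these days and limma-voom was run as well, and neither called a member on any day or over the average. Without adjustment, 0 rows had a p under 0.05 over the average, 0 on day 1, 2 on day 2 and 0 on day 4. The median log2 difference of the members was -0.12 over the average, beside 0.01 for all genes tested. Of the 8 fitted log2 differences 6 were below 0 and 2 above, but on the scale of log2(FPKM + 1), which has no TMM factor, those of Scnn1b, Scnn1g and Nedd4l were 0.12, 0.05 and 0.06.

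**Figure D1:**
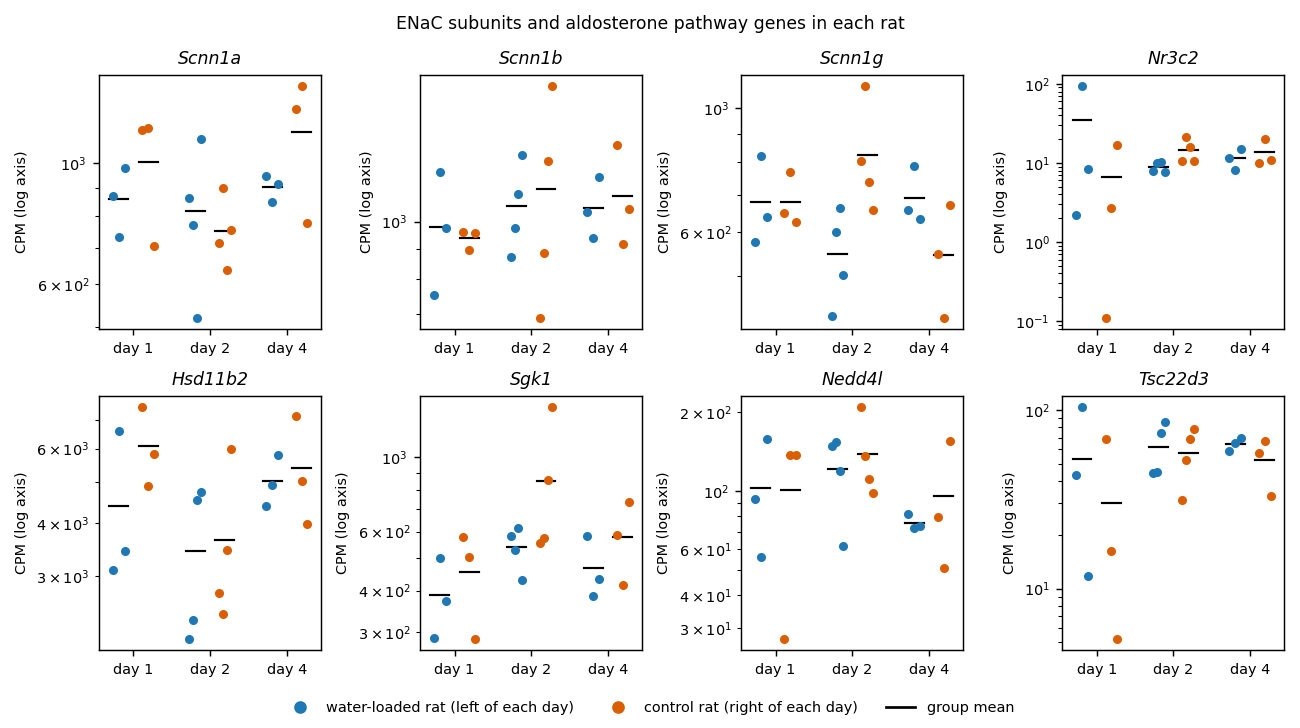
CPM of the 8 genes in each of the 20 rats on log axes, by day, with water-loaded rats in blue left of control rats in orange and a black line at each group mean. The groups overlap in every panel and day except Nr3c2 on day 2, where the 4 water-loaded rats sit at 7.602 to 10.18 CPM, all below the control rats.

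ENaC is built from an alpha, a beta and a gamma subunit, and each was abundant in every rat. Per length, in FPKM, a count scaled to its library and to the length of the gene, the beta subunit Scnn1b averaged 385.5 ± 101.7, the alpha subunit Scnn1a 267.8 ± 62.32 and the gamma subunit Scnn1g 221 ± 57.7 (SD, n = 20). The median within-rat FPKM ratio was 1.34 for Scnn1b over Scnn1a, 0.814 for Scnn1g over Scnn1a and 0.577 for Scnn1g over Scnn1b. All subunits were steady among rats beside most tested genes, though each ranged 2.45- to 2.67-fold from its lowest to its highest rat. Their biological coefficient of variation in the edgeR fit was 28.4% for Scnn1a, 28.6% for Scnn1b and 26.7% for Scnn1g, which ranked among the lowest 0.56%, 0.58% and 0.145% of tested genes. Other abundant genes ranked low too, with Aqp2 at 2.46%, Sgk1 at 3.59% and Hsd11b2 at 5.32%. The rank is over genes of all levels, and genes of like abundance were not compared.

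Scnn1a, the subunit that aldosterone is known to induce in the collecting duct, was flat within its spread. On day 1 it stood at 871.3, 732.5 and 981.8 CPM in water-loaded rats and 1152, 1162 and 704.3 CPM in control rats. On day 2 it stood at 863.8, 770.8, 520.3 and 1109 CPM in water-loaded rats and 713.2, 901.5, 637.4 and 753.8 CPM in control rats. On day 4 it stood at 948.9, 849.3 and 917.8 CPM in water-loaded rats and 1261, 1388 and 776 CPM in control rats. The groups overlapped on each day, with 1 low control rat on days 1 and 4. Over all days it averaged 856.5 ± 159 CPM with the water load and 944.9 ± 270.6 CPM without it (SD, n = 10 each). Its fitted log2 difference was -0.15 (SE 0.155, 95% interval -0.47 to 0.18, adjusted p = 0.794).

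Scnn1b, the beta subunit, had the smallest difference of the 8 genes over the average of days. In water-loaded rats it stood at 751.6, 1214 and 975.8 CPM on day 1, at 872.6, 976.6, 1115 and 1292 CPM on day 2 and at 1039, 939 and 1188 CPM on day 4. In control rats it stood at 960.9, 896.3 and 956 CPM on day 1, at 689.4, 887.3, 1267 and 1690 CPM on day 2 and at 1346, 918.1 and 1051 CPM on day 4. The control rats of day 2 spanned both the lowest and the highest value, and no day separated the groups. The average was 1036 ± 166.9 CPM with the water load and 1066 ± 289.8 CPM without it (SD, n = 10 each), a fitted log2 difference of -0.03 (SE 0.157, 95% interval -0.36 to 0.30, adjusted p = 1).

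Scnn1g, the gamma subunit, had opposite differences on days 2 and 4, neither of which passed the test. On day 1 it stood at 576.2, 820.2 and 639.5 CPM in water-loaded rats and 648.4, 768.2 and 626 CPM in control rats. On day 2 it stood at 424, 600.1, 661.8 and 503.5 CPM in water-loaded rats and 805.7, 1096, 737.2 and 657.2 CPM in control rats. On day 4 it stood at 656.7, 787.6 and 632.3 CPM in water-loaded rats and 548, 421.6 and 671.1 CPM in control rats. On day 2 a single water-loaded rat reached above the lowest control rat, and on day 4 a single control rat reached into the water-loaded range. Between same-numbered rats of day 2, the water-loaded rat was the lower in 4 of 4 pairs. With the replicate number as a block the day 2 log2 difference was -0.58 (adjusted p = 1 by edgeR). That the number marks true pairs was not established. The log2 differences were -0.01 (SE 0.252) on day 1, -0.59 (SE 0.219, unadjusted p = 0.014, adjusted p = 0.857) on day 2 and 0.34 (SE 0.252, adjusted p = 0.952) on day 4 by edgeR. The test of whether the effect differs between days gave Scnn1g an unadjusted p of 0.0332 and an adjusted p of 0.531. That test called 0 of 9 rows, with 1 under 0.05 unadjusted, and 0% of all genes; limma-voom called 0 rows too.

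The day 2 difference of Scnn1g differed in size between rats numbered 1 and 2 and rats numbered 3 and 4, which were looked at apart after the data were seen. It was -0.90 between means of 512 CPM with the water load and 950.8 CPM without it numbered 1 and 2. It was -0.27 between 582.6 CPM with the water load and 697.2 CPM without it numbered 3 and 4. Without day 2 control rat 2, the highest, the fitted difference was -0.43.

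**Figure D2:**
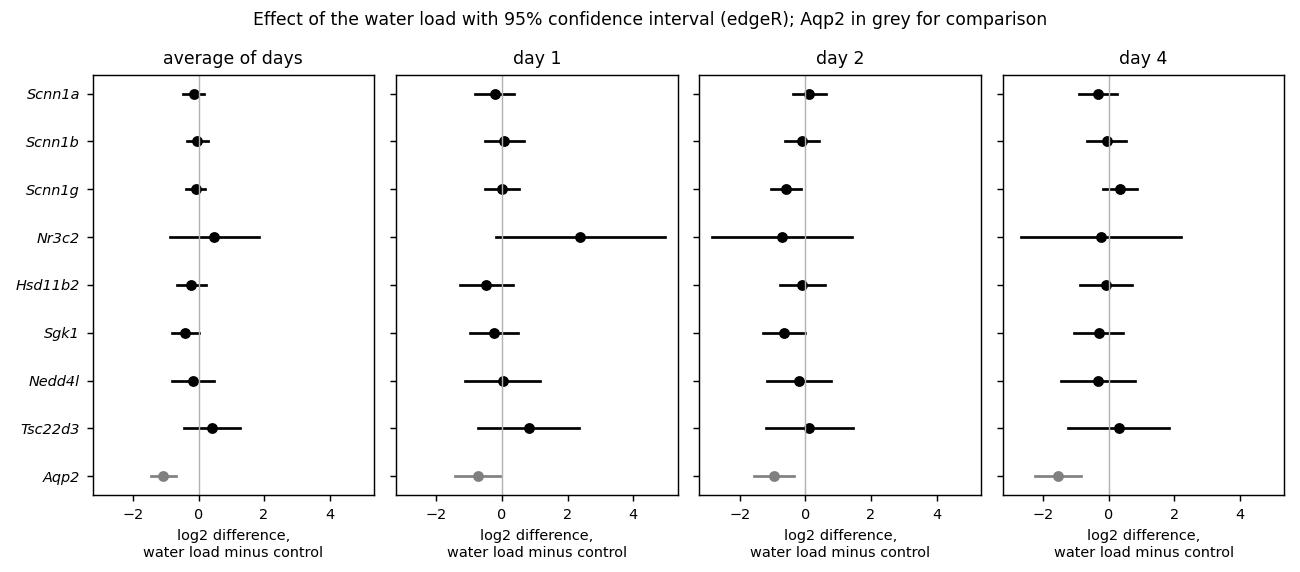
Fitted log2 difference, water load minus control, with its 95% confidence interval for each gene over the average of days and on days 1, 2 and 4, from 20 rats. Each member's interval over the average spans 0, with -0.47 to 0.18 for Scnn1a, while that of Aqp2, in grey, lies at -1.46 to -0.68.

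Scnn1g and Scnn1b lie next to each other on rat chromosome 1, with 0 genes between them in the RefSeq annotation of GRCr8. Their levels did not rise and fall together among rats of a group (Pearson r = -0.07, Spearman rho = -0.01, n = 20, permutation p = 0.84 and 0.971, adjusted p = 0.899 and 0.971 over 28 pairs). The starts of the 2 genes are shown to set side by side the promoters of neighbouring subunits. RefSeq windows of 300 bases around the annotated start were matched by symbol for 5 of 8 members, which gave 9 windows. Scnn1a, Nr3c2 and Hsd11b2 had no match. Capitals mark TGACG, the core of the cAMP response element, on the strand shown. The Scnn1b window (GRCr8 chr1:185861126-185861425, plus strand) holds it at position -146 from the start, and the Scnn1g window (chr1:185735975-185736274, plus strand) holds none of the motifs searched.
Scnn1b: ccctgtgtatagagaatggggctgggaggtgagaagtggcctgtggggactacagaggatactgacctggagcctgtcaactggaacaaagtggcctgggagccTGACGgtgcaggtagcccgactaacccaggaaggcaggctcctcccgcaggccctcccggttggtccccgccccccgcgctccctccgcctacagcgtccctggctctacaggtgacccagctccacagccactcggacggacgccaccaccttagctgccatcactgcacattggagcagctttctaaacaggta
Scnn1g: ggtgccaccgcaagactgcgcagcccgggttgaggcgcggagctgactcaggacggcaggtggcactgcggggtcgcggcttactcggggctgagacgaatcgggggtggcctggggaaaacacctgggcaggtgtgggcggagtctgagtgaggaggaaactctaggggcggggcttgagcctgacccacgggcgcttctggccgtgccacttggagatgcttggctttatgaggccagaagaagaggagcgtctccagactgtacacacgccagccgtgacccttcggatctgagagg

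The motifs searched on both strands were TGACG, then AGAACA, part of the site bound by the corticosteroid receptors, and last TATAAA, the TATA box. TGACG was in 2 of the 9 member windows and in 21.2% of the 33469 windows of the same length. AGAACA was in 0 of 9 and in 20.7% of the windows. TATAAA was in 3 of 9 and in 14.2%. These are matches of letters and say nothing of binding, and counts per gene cannot tell which start was used.

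Ratios between subunits in the same rat do not depend on how libraries are scaled, and they did not pass the test. The log2 ratio of Scnn1b to Scnn1a averaged 0.28 ± 0.38 with the water load and 0.18 ± 0.57 without it (SD, n = 10 each). That of Scnn1g to Scnn1a averaged -0.44 ± 0.47 with the water load and -0.43 ± 0.66 without it. That of Scnn1g to Scnn1b averaged -0.72 ± 0.32 with the water load and -0.61 ± 0.58 without it. Averaged over days, the differences were 0.12 (SE 0.222), 0.06 (SE 0.225) and -0.07 (SE 0.202), with exact two-sided permutation p of 0.557, 0.82 and 0.73 and an adjusted p of 0.82 each over the 8 ratios tested. On day 2 the ratio of Scnn1g to Scnn1a differed by -0.66 and on day 4 by 0.65. The level of Scnn1g, which is part of this ratio, had the same order, so the ratio is not a separate result.

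Against Aqp2, the water channel of principal cells, each subunit was about as much higher in water-loaded rats as most genes were. Aqp2 itself stood at 13370 ± 3746 CPM with the water load and 28840 ± 11930 CPM without it (SD, n = 10 each), and the ratios were chosen with that known. The log2 ratio of Scnn1b to Aqp2 was -3.96 to -3.05 in water-loaded rats and -5.91 to -4.15 in control rats, with no overlap. Its difference was 1.06 (SE 0.173, exact permutation p = 7.14e-05, the smallest that 28000 arrangements can give, adjusted p = 0.000571 over 8 ratios), and positive on 3 of 3 days. For Scnn1a the difference was 0.94 (SE 0.184, exact permutation p = 0.000571, adjusted p = 0.00229), and for Scnn1g 0.99 (SE 0.255, exact permutation p = 0.00279, adjusted p = 0.00743). These groups overlapped on day 1 for Scnn1a and on day 2 for Scnn1g. The same test over all 14471 other genes gave a median difference of 1.25 and called 37.4% of them higher. The subunits stood at the 33.2, 40 and 36.4 percentiles of all genes for Scnn1a, Scnn1b and Scnn1g, so the higher ratio was not particular to ENaC.

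**Figure D3:**
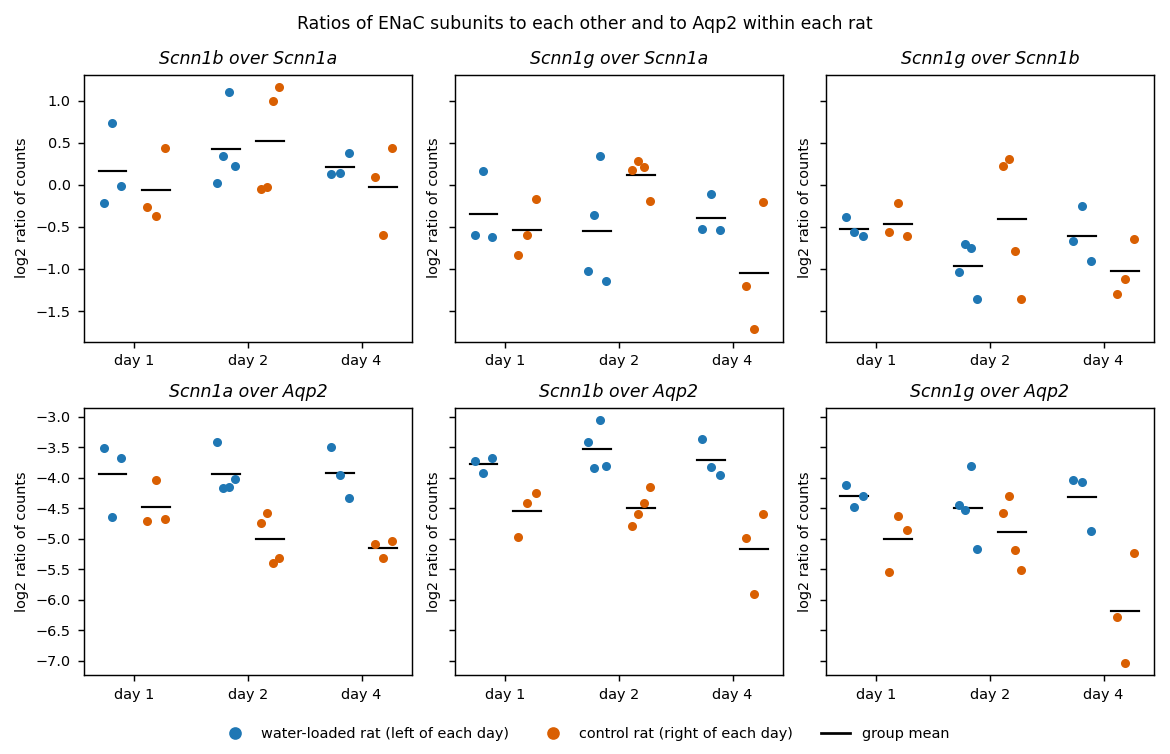
Log2 ratio of counts in each rat, between subunits in the top row and of each subunit to Aqp2 in the bottom row, with water-loaded rats in blue left of control rats in orange and a black line at each group mean. The top panels overlap on every day, and in the Scnn1b over Aqp2 panel the water-loaded rats lie at -3.96 to -3.05, above all control rats.

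Nr3c2, the mineralocorticoid receptor, was the least abundant member apart from the second Tsc22d3 row, at 5.216 ± 4.991 FPKM (SD, n = 20), next to 6.089 ± 3.349 FPKM for the glucocorticoid receptor Nr3c1. On day 1 it stood at 2.224, 93.66 and 8.39 CPM in water-loaded rats and 0.1105, 2.73 and 17.01 CPM in control rats. On day 2 it stood at 7.893, 9.94, 10.18 and 7.602 CPM in water-loaded rats and 10.69, 21.15, 16.07 and 10.47 CPM in control rats. On day 4 it stood at 11.69, 8.131 and 15.19 CPM in water-loaded rats and 10.12, 20.24 and 10.91 CPM in control rats. Day 1 varied over 847-fold among 6 rats, but its lowest value, in day 1 control rat 1, was 4 counts, near the floor of 3. Day 2 was the 1 day on which a member's groups did not overlap in CPM, with every water-loaded rat lower. In FPKM they did overlap, with 4.448 in day 2 water-loaded rat 3 and 4.047 in day 2 control rat 4. For comparison, 10.9% of all genes had groups that did not overlap on day 1, 4.23% on day 2 and 14.7% on day 4.

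The day 2 log2 difference of Nr3c2 was -0.71 (SE 1.017, adjusted p = 1 by edgeR), with the spread of the fit set by all days. On day 1 it was 2.39 (SE 1.229, adjusted p = 0.357), and -0.91 with day 1 water-loaded rat 2 and day 1 control rat 1 both set aside. The first of these rats had the high proximal and connecting tubule marker sums given above, and the part of those cells in its Nr3c2 was not tested. Over the average the difference was 0.48 (SE 0.647, 95% interval -0.87 to 1.84, adjusted p = 0.861), against -0.42 without day 1 water-loaded rat 2 and 1.22 without day 1 control rat 3. The log2 ratio of Nr3c2 to Nr3c1 differed by 0.26 (SE 0.46, exact permutation p = 0.678, adjusted p = 0.82). Nr3c1 too is the symbol of 2 Ensembl genes, and the row with more reads was used for its FPKM and for this ratio. The other row had a log2 difference of 2.02 over the average (SE 1.475, adjusted p = 0.63 by edgeR).

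Hsd11b2, the enzyme that shields the receptor from glucocorticoids, was the most abundant member per length, at 2431 ± 775.7 FPKM (SD, n = 20). In water-loaded rats it stood at 3111, 6602 and 3441 CPM on day 1, at 2140, 2372, 4546 and 4731 CPM on day 2 and at 4408, 4915 and 5803 CPM on day 4. In control rats it stood at 7511, 4889 and 5829 CPM on day 1, at 2738, 2453, 3467 and 6001 CPM on day 2 and at 7179, 5032 and 3992 CPM on day 4. On day 2 the rats numbered 1 and 2 were low in both groups, with means of 2256 CPM with the water load and 2596 CPM without it, and those numbered 3 and 4 averaged 4639 and 4734 CPM. Over all days Hsd11b2 averaged 4207 ± 1439 CPM with the water load and 4909 ± 1753 CPM without it (SD, n = 10 each). The fitted log2 difference was -0.22 (SE 0.21, 95% interval -0.66 to 0.22, adjusted p = 0.757).

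Sgk1, the aldosterone-induced kinase, had the most negative difference of the 8 genes over the average of days, and it did not pass the test. On day 1 it stood at 287.8, 500.9 and 372.7 CPM in water-loaded rats and 577.1, 503.3 and 287 CPM in control rats. It stood on day 2 at 582.9, 529.6, 613 and 430.5 CPM in water-loaded rats and 553.9, 573.7, 854.9 and 1412 CPM in control rats. On day 4 it stood at 582.6, 386.4 and 434.3 CPM in water-loaded rats and 585.6, 414.8 and 737.7 CPM in control rats. Its highest values in the study were control rats 3 and 4 of day 2, and the groups overlapped on each day. Over all days it averaged 472.1 ± 106.9 CPM with the water load and 650 ± 309.8 CPM without it (SD, n = 10 each), a fitted log2 difference of -0.40 (SE 0.196, 95% interval -0.81 to 0.01, unadjusted p = 0.0548, adjusted p = 0.388).

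The Sgk1 difference on day 2, -0.66 (SE 0.307, unadjusted p = 0.0461, adjusted p = 0.943), rested on those control rats. It was -1.10 among rats numbered 3 and 4, at 521.8 CPM with the water load and 1134 CPM without it. Among rats numbered 1 and 2 it was -0.02, at 556.2 CPM with the water load and 563.8 CPM without it. Without day 2 control rat 4 the fitted difference was -0.30. Immediate-early genes rise with handling and stimulation of many cells. In 10 of 10 measured, the fitted log2 difference, water load minus control, was below 0 over the average of days. Its median was -0.93, beside 0.01 for all genes tested. Of these genes 0 were called, where 0.159% of all genes were. The summed level of immediate-early genes overlapped, at 1971 to 12640 CPM with the water load and 2768 to 30520 CPM without it. Their part in the Sgk1 values was not tested.

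Nedd4l, the ubiquitin ligase that Sgk1 inhibits, stood in water-loaded rats at 93.55, 56.12 and 157.8 CPM on day 1, at 149.2, 154.3, 119.7 and 61.91 CPM on day 2 and at 81.92, 72.01 and 73.32 CPM on day 4. In control rats it stood at 27.21, 137.3 and 137.9 CPM on day 1, at 209.5, 136.6, 110.9 and 98.66 CPM on day 2 and at 79.36, 50.76 and 156 CPM on day 4. The groups overlapped on each day. Its mean was 102 ± 39.84 CPM with the water load and 114.4 ± 53.21 CPM without it (SD, n = 10 each), a fitted log2 difference of -0.17 (SE 0.301, 95% interval -0.80 to 0.46, adjusted p = 0.918). The within-rat log2 ratio of Sgk1 to Nedd4l averaged 2.27 ± 0.61 with the water load and 2.58 ± 1.05 without it, a difference of -0.30 (SE 0.428, exact permutation p = 0.494, adjusted p = 0.82).

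Tsc22d3, which encodes the corticosteroid-induced protein GILZ, varied more among rats than between groups. Its main row (ENSRNOG00000056135) stood in water-loaded rats at 43.46, 103.4 and 11.83 CPM on day 1, at 44.41, 44.91, 74.12 and 85.51 CPM on day 2 and at 58.83, 65.41 and 69.27 CPM on day 4. In control rats it stood at 68.55, 16.31 and 5.242 CPM on day 1, at 31.44, 52.32, 68.78 and 77.96 CPM on day 2 and at 57.66, 66.77 and 32.76 CPM on day 4. In CPM, day 1 held both the highest and the lowest rat. In FPKM the highest was day 2 water-loaded rat 3, at 43.95 against 36.65 in day 1 water-loaded rat 2. The fitted log2 difference over the days was 0.41 (SE 0.405, 95% interval -0.44 to 1.26, adjusted p = 0.769), and it was 0.10 without day 1 water-loaded rat 2 and 0.90 without day 1 control rat 1.

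A second Ensembl gene with the symbol Tsc22d3 (ENSRNOG00000060899) had few reads, all of them on days 2 and 4. It had 0 counts in 6 of 6 day 1 libraries. Day 2 libraries had 0 to 100 counts, with 2 of 8 libraries at 0, both of control rats, and on day 4 it had 1 to 93 counts. Against the floor of 3 counts per library on day 1, its mean CPM was at least 10.1-fold higher on day 2 and at least 14-fold higher on day 4. It was the 1 member row called in the test of days averaged over treatments (adjusted p = 0.0492 by edgeR), where 8.33% of all genes were called. A call in 1 of 9 rows is near that share. The row passed the low-count filter only through libraries of days 2 and 4, so its test against day 1 is not independent of that filter. With no filter its adjusted p was 0.0607 by edgeR. By pairs of days, it alone was called among the 9 rows for day 2 minus day 1 (adjusted p = 0.0353, with 5.83% of all genes called) and for day 4 minus day 1 (adjusted p = 0.0249, with 7.5%), and 0 rows were called for day 4 minus day 2 (1 under 0.05 unadjusted, with 0.401%). Leaving out any of 16 of the 20 libraries ended the call over all days, with adjusted p of 0.0612 to 0.102. Reads not uniquely aligned, 21.32% to 26.92% of counts per library, were given to no gene. Reads shared between the 2 Tsc22d3 genes could be among them, so the level of this row is uncertain.

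The starts of Sgk1 and Tsc22d3 are shown as the promoters of the hormone-responsive targets whose levels were followed. Sgk1 and Tsc22d3 had 3 RefSeq windows each, and the window shown for each holds TATAAA nearest to its start. Capitals mark TATAAA and TGACG on the strand shown. Sgk1 (GRCr8 chr1:24804782-24805081, minus strand) holds TATAAA at position -33. Tsc22d3 (chrX:109009985-109010284, minus strand) holds TATAAA at -44 and TGACG at -75 and -65.
Sgk1: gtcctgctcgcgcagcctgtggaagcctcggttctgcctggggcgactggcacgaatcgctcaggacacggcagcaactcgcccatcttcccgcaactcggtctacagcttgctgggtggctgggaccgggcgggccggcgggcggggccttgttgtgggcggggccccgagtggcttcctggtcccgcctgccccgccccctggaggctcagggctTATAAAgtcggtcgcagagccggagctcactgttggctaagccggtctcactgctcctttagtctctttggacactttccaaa
Tsc22d3: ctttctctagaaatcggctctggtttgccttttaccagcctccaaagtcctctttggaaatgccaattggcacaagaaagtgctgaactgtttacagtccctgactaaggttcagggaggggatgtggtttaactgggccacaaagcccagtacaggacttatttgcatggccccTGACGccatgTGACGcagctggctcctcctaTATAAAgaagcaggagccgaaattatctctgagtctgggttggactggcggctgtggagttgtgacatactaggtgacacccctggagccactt

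Among rats of the same group, Nedd4l and Tsc22d3 ran opposite to each other. The correlation was computed on log2 CPM minus the group mean, for all 28 pairs of the 8 genes, and tested by permutation within groups. Nedd4l and Tsc22d3 had a Pearson r of -0.88 and a Spearman rho of -0.93 over 20 rats (permutation p = 1e-05 for each, the smallest that 100000 resamples can give, adjusted p = 0.00028 over 28 pairs). Without the 2 rats farthest from the median of Nedd4l r was -0.82, and with day 1 water-loaded rat 2 and day 1 control rat 1 set aside it was -0.74. With the day 2 libraries numbered 1 and 2 and those numbered 3 and 4 centred separately, r was -0.87 (adjusted p = 0.0056). Of 7721 other genes, 14 (0.181%), Tsc22d3 included, had an r with Nedd4l as negative or more so. Genes with a positive r of that size were not counted. The length implied by FPKM was 0.955 of that of Scnn1a for Nedd4l and 0.576 for Tsc22d3, so these transcripts differ in length, and the part of that in the relation was not tested.

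Scnn1b and Hsd11b2 rose and fell together among rats, with r of 0.81 and rho of 0.87 (n = 20, permutation p = 7e-04 and 4e-04, adjusted p = 0.0098 and 0.0056 over 28 pairs). Without the 2 rats farthest from the median of Scnn1b r was 0.82. With day 2 rats numbered 1 and 2 and rats numbered 3 and 4 centred separately, r was 0.74 and the call was lost (adjusted p = 0.36). Its call was lost on log2(FPKM + 1) too, with r of 0.75 (adjusted p = 0.0634). Of 7721 genes, 38 (0.492%), Scnn1b included, had an r with Hsd11b2 as high or higher. Genes with a negative r of that size were not counted. In all, 2 of 28 pairs were called by Pearson's r and 4 by Spearman's rho, with 14 coefficients above and 14 below 0. Between Scnn1a and the other subunits no pair was called: r was -0.06 for Scnn1a with Scnn1b (permutation p = 0.794, adjusted p = 0.899) and -0.34 with Scnn1g (permutation p = 0.24, adjusted p = 0.575).

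**Figure D4:**
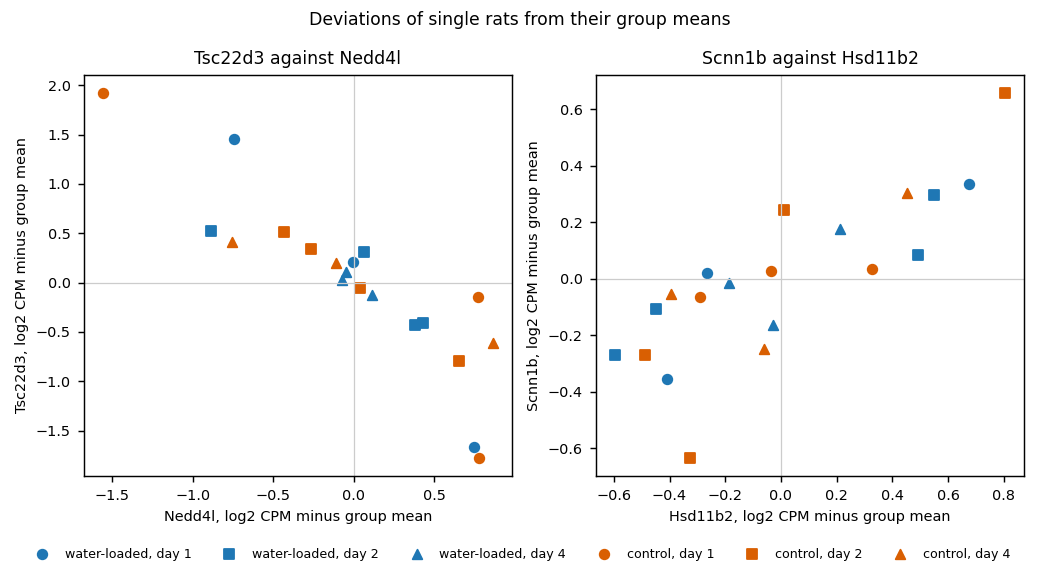
Log2 CPM minus the group mean in each of the 20 rats, for Tsc22d3 against Nedd4l on the left and Scnn1b against Hsd11b2 on the right, by treatment (colour) and day (shape). The left cloud falls with r of -0.88, and the right cloud rises with r of 0.81.

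Among the 5 genes whose log2 CPM was most like the mean of the 3 ENaC subunits over the 20 libraries, out of 7369 genes with a symbol and a mean of at least 10 CPM, were Pim3, Adgrg1, Trim17 and Rabac1. Their Pearson r with the ENaC mean was 0.692, 0.681, 0.665 and 0.665, over libraries that share depth and handling, and is given as a description. The ENaC mean itself stood at 9.68 ± 0.16 log2 CPM with the water load and 9.74 ± 0.17 without it on day 1 (SD, n = 3 each). It stood at 9.58 ± 0.17 with the water load and 9.76 ± 0.18 without it on day 2 (SD, n = 4 each). On day 4 it stood at 9.76 ± 0.02 with the water load and 9.76 ± 0.15 without it (SD, n = 3 each). The groups' means lay within an SD of each other on day 1 and day 4 and about an SD apart on day 2.

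The highest of the 6 group means was 5.25 times the lowest for Nr3c2, 2.19 times for Sgk1, 2.15 times for the main Tsc22d3 row, 1.83 times for Nedd4l, 1.76 times for Hsd11b2, 1.52 times for Scnn1a, 1.51 times for Scnn1g and 1.21 times for Scnn1b. With the groups in order of their means, neighbours lay within the larger SD of the pair in 5 of 5 steps for each of these genes except Scnn1g, with 4 of 5. Ordering makes such steps small, and Aqp2 too had 3 of 5 within the SD. Sgk1 was lowest on day 1, at 421.5 ± 122.9 CPM (n = 6), with 693.8 ± 314.2 on day 2 (n = 8) and 523.6 ± 135.5 on day 4 (SD, n = 6). The test of days averaged over treatments gave it an unadjusted p of 0.0275 and an adjusted p of 0.132 by edgeR, and an adjusted p of 0.0366 by limma-voom. Hsd11b2 had an adjusted p of 0.207 in that test, with the lowest mean on day 2, and of 0.0112 once the day 2 libraries numbered 3 and 4 had a term of their own. The main Tsc22d3 row had an adjusted p of 0.668 by edgeR, of 0.0166 by limma-voom and of 0.0338 with day 1 water-loaded rat 2 and day 1 control rat 1 set aside. Among control rats alone 0 of 9 rows differed between days (2 under 0.05 unadjusted), where 2.45% of all genes did. Among water-loaded rats alone 0 of 9 did (1 under 0.05 unadjusted), where 0.263% of all genes did; limma-voom called 0 rows in both.

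The rest of the pathway was read from 5 lists. By edgeR no listed gene was called for the water load over the average, on any day, or in the test of the difference between days. Of all genes it called 0.159% over the average and 0% in each of the other tests. Other methods were read for only some of the listed genes, and limma-voom called Spint2 over the average (adjusted p = 0.036). In several lists genes differed between days, averaged over treatments. ENaC proteolytic activation covers the proteases that cleave the channel subunits and their inhibitors, and 2 of its 7 genes were called, where 8.33% of all genes were. Corticosteroid receptors and chaperones had 4 of 10 rows called, aldosterone or corticosteroid induced genes 1 of 15, the Sgk1 and Nedd4l branch 0 of 15, and regulators of Scnn1a transcription 0 of 5. Day and the handling of the libraries taken on it cannot be told apart.

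Spint2, which encodes a Kunitz inhibitor of serine proteases such as prostasin, had the smallest adjusted p of all 14472 genes in the test of days (3.47e-06 by edgeR). On day 1 it stood at 3854 ± 1880 CPM with the water load and 4013 ± 1492 CPM without it (SD, n = 3 each). It stood on day 2 at 505 ± 59.61 CPM with the water load and 946.4 ± 69.83 CPM without it (SD, n = 4 each). It stood on day 4 at 622.8 ± 120.6 CPM with the water load and 1167 ± 390.1 CPM without it (SD, n = 3 each). Every day 1 rat, at 2480 to 6019 CPM, lay above every rat of days 2 and 4, at 429.6 to 1573 CPM. The log2 difference was -2.51 (SE 0.216) for day 2 minus day 1 and -2.21 (SE 0.237) for day 4 minus day 1, and it passed among control rats and among water-loaded rats each alone.

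The water load did not pass the edgeR test for Spint2. Its log2 difference over the days was -0.62 (SE 0.178, unadjusted p = 0.00238, adjusted p = 0.141), and limma-voom with quality weights gave -0.65 (adjusted p = 0.036). On day 2 the water-loaded rats, at 429.6 to 571.9 CPM, lay below the control rats, at 862.7 to 1012 CPM, and on day 4 they lay at 547.2 to 761.9 CPM, below 794.8 to 1573 CPM. In 4.23% of all genes on day 2 and 14.7% on day 4 the groups did not overlap. Furin, the convertase that cleaves the alpha and gamma subunits, had 219.4 ± 110.8 CPM on day 1 (n = 6), 99.63 ± 15.1 on day 2 (n = 8) and 263 ± 75.11 on day 4 (SD, n = 6; adjusted p = 0.00509 by edgeR). It was lower on day 2 than on day 1 by a log2 difference of -1.14 (SE 0.255) and higher on day 4 than on day 2 by 1.38 (SE 0.256).

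**Figure D5:**
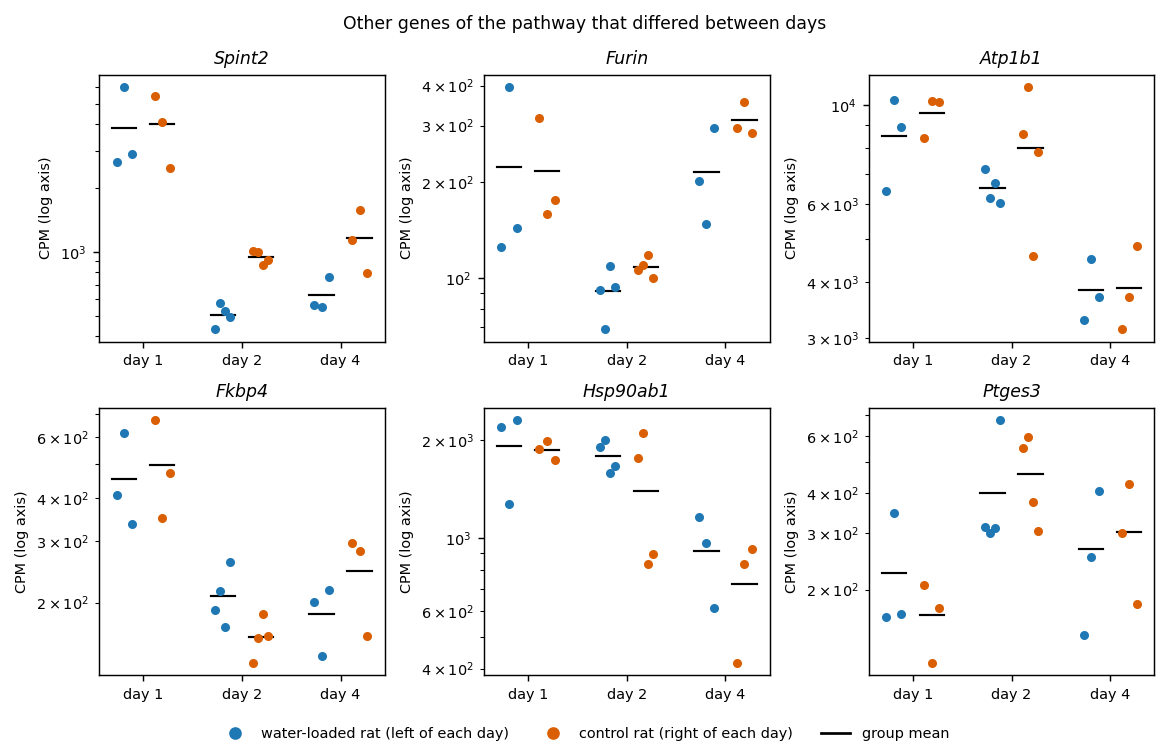
CPM on log axes of 6 pathway genes that differed between days, in each rat, with water-loaded rats in blue left of control rats in orange and a black line at each group mean. Spint2 is highest on day 1, at 2480 to 6019 CPM, and Atp1b1 is lowest on day 4.

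Of the receptor chaperones, Fkbp4, an immunophilin of the steroid receptor complex, had 475.1 ± 139.4 CPM on day 1 (n = 6), 184.5 ± 39.56 on day 2 (n = 8) and 215.9 ± 62.92 on day 4 (SD, n = 6; adjusted p = 0.000829 by edgeR). Hsp90ab1, which holds the receptors ready to bind hormone, was lowest on day 4 at 819.8 ± 266.9 CPM, with 1892 ± 362.9 on day 1 and 1591 ± 479.2 on day 2 (adjusted p = 0.0145). Ptges3, the cochaperone p23, was highest on day 2 at 428.5 ± 153.4 CPM (adjusted p = 0.0477). Ncoa2, a coactivator of the receptors, was below 4 CPM in every library (adjusted p = 0.049). On day 1 it averaged 0.02137 CPM, with at most 0.1282 CPM in a library. The Ncoa2 row passed the low-count filter only through libraries of days 2 and 4, so its test of days is not independent of that filter. With no filter its adjusted p was 0.0631 by edgeR. Hsp90ab1 was not called on log2(FPKM + 1) or log2(FPKM + 0.1), with adjusted p of 0.069 and 0.066 by limma. Ptges3 lost its call without any of 15 of the 20 libraries, and Ncoa2 without any of 16. Hsp90ab1 and Ptges3 have near-identical retrocopies with which reads can be shared, so their levels are uncertain. Atp1b1, the beta subunit of the sodium pump that moves the sodium that ENaC lets in out of the cell, had 9058 ± 1502 CPM on day 1, 7257 ± 1936 CPM on day 2 and 3864 ± 672.3 CPM on day 4 (SD; adjusted p = 0.00163 by edgeR). Its log2 difference was -1.23 (SE 0.19) for day 4 minus day 1.

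Another 5 listed genes were called for day 4 minus day 1, where 7.5% of all genes were, but not in the test of all days, where their adjusted p was 0.0501 to 0.0766 by edgeR. Each of the 5 was at 0 in several libraries of at least 1 day, and single rats set their means. Edn1, which encodes endothelin-1, an inhibitor of ENaC, averaged 21.72 CPM on day 1 and 0.1341 CPM on day 4 (adjusted p = 0.0396), with a day 1 mean of 4.636 CPM without its highest rat. Serpine2, a protease inhibitor, averaged 16.56 CPM on day 1 and 0.8612 CPM on day 4 (adjusted p = 0.0252), with a day 1 mean of 4.057 CPM without its highest rat. Zbtb16, a corticosteroid-induced transcription factor, and Tmprss4, a serine protease, were at 0 in 6 of 6 day 1 libraries. They averaged 4.088 and 1.04 CPM on day 4 (adjusted p = 0.036 and 0.0451), and 1.717 and 0.6245 CPM without the highest rat of each. Both rows passed the low-count filter only through libraries of days 2 and 4, so their tests against day 1 are not independent of that filter. Kmt2a, a histone methyltransferase, averaged 0.02848 CPM on day 1 and 1.622 CPM on day 4 (adjusted p = 0.0471), with a day 4 mean of 0.6922 CPM without its highest rat. It was called for day 2 minus day 1 as well (adjusted p = 0.049), with a mean of 1.771 CPM on day 2. Kmt2a was at 0 in 4 of 6 day 1 libraries and reached at most 0.1525 CPM on that day. The limit from the filter therefore holds for it too.

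Where a list had no call in the test of days, the genes with the smallest unadjusted p over the average of days were these. Ywhab, a 14-3-3 protein that binds phosphorylated Nedd4-2, had a log2 difference of -0.47 (SE 0.178, adjusted p = 0.242). Wnk1, a kinase upstream of Sgk1, had 0.67 (SE 0.298, adjusted p = 0.33). Sirt1, a deacetylase known to repress Scnn1a in collecting duct cells of the mouse, had 2.11 (SE 0.882, adjusted p = 0.294), with group means from 0.2416 to 6.153 CPM. Mllt3, the Af9 partner of Dot1l in that repression, had 1.32 (SE 0.936, adjusted p = 0.612). None of these values passed the test by edgeR.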

How the data were processed

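Libraries came from cortical collecting ducts of 20 rats, per the labels' protocols. The authors deposited whole-number read counts per Ensembl gene and FPKM values. Per the submitters' processing notes, the tools were Trimmomatic 0.32, STAR 2.4.0.1, SAMtools and HTSeq, on build rn6. Which annotation was counted, and whether by strand, is not given in the sources used here. Deposited FPKM values were the counts rescaled: 0 of 13538 genes had an implied length varying by over 0.1% between libraries. Lines that name no gene, 31.45% to 35.61% of counts, were left out.

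The test on counts was that of edgeR 4.0.16 under R 4.3.3 (filterByExpr on group, TMM, robust quasi-likelihood), with a mean per group and a spread shared by all 20 libraries. Contrasts were water load minus control per day and as the equal-weight average of days, the change of that effect between days, and days averaged over treatments and within each. Adjusted p is Benjamini-Hochberg over 14472 genes, called at 0.05. Levels are CPM on TMM library sizes, and their means need not match fitted log2 differences. Within-rat log2 ratios of counts (0.5 added) were tested by exact two-sided permutation within days, and correlations of log2 CPM (prior count 2) by two-sided permutation within groups. Scripts were tested on simulated data. Alternatives used DESeq2 1.42.0, limma 3.58.1, other filters and scales, a replicate block, and each library left out. For day 2 libraries numbered 3 and 4, an own term and separate centring were added after the data were seen.

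Named genes are the 8 members, of each other list those called in a contrast (pairs of days aside, whose 5 further genes are given in brief) or else up to 2 with the smallest unadjusted p over the average of days, and the 5 genes most like the ENaC mean, of which 1 is not reported here. Members and lists were chosen with earlier results of these data known. Same-numbered rats correlated in their deviations from group means at 0.147 to 0.236 on day 2. The number was therefore taken as a possible pairing of rats on that day, by the data and not by the labels. Only same-numbered rats were compared, so the check cannot tell pairs from a split between low and high numbers, such as Hsd11b2 showed. On days 1 and 4 the correlations were -0.091 to 0.06, which gave no pairing. Promoter windows come from RefSeq's GRCr8, matched by symbol.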

Additional observations from a re-analysis of the deposited data

How the results depend on the processing

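For the 104 results 38 other settings were used, 20 of which left out 1 library. Each result was run under those that applied to it, and none under all of them. No setting called a member for the water load over the average, on any day or in the difference between days, and the 3 ratios to Aqp2 were called under every setting run for them. Of all genes, 23 were called over the average, against 5 with the replicate block within days, 708 by DESeq2 and 6 to 37 without 1 library. With the block 0 members were called, and it changed no call of a member or ratio. Small differences changed sign. With DESeq2 size factors and with the DESeq2 Wald test, Scnn1g on day 1 was 0.011 each, from its own day's libraries alone 0.014 and with detected genes as covariate 0.017; Nr3c2 on day 4 was then 0.23. By limma-voom with quality weights Nr3c2 was -0.29 over the average and -0.06 on day 1, Scnn1b on day 1 -0.088 and Nedd4l on day 1 -0.12. On log2(FPKM + 1), where the median of all genes was 0.10 over the average and 0.19 on day 4, Scnn1b, Scnn1g and Nedd4l were 0.12, 0.053 and 0.062 over the average, Scnn1g 0.097 on day 1, and Scnn1b, Nr3c2, Hsd11b2 and Nedd4l 0.21, 0.048, 0.20 and 0.078 on day 4. With 0.1 added instead they were 0.12, 0.054 and 0.075, then 0.098, then 0.21, 0.057, 0.20 and 0.088. With day 1 control rat 1 and day 1 water-loaded rat 2 set aside, Nr3c2 was -0.61 over the average and -0.91 on day 1, Scnn1b and Nedd4l on day 1 -0.11 and -0.14, and the log2 ratios Scnn1b/Scnn1a, Scnn1g/Scnn1a and Nr3c2/Nr3c1 -0.003, -0.078 and -0.21. Leaving out 1 library at a time gave ranges across 0 on day 1 for Nedd4l (-0.43 to 0.32), Scnn1g (-0.16 to 0.093), Scnn1b (-0.12 to 0.22), Nr3c2 (-0.32 to 4.61) and Tsc22d3 (-0.12 to 2.30). On day 2 it did so for Nedd4l (-0.34 to 0.076), Tsc22d3 (-0.087 to 0.28), Scnn1b (-0.26 to 0.16), Hsd11b2 (-0.25 to 0.24) and Scnn1a (-0.035 to 0.28), and on day 4 for Scnn1b (-0.18 to 0.10), Hsd11b2 (-0.26 to 0.16), Nr3c2 (-0.48 to 0.15) and Nedd4l (-0.64 to 0.23). Over the average it did so for Scnn1b (-0.092 to 0.06), Nr3c2 (-0.42 to 1.22) and Nedd4l (-0.32 to 0.018), and for the ratios Sgk1/Nedd4l (-0.53 to 0.03), Scnn1g/Scnn1a (-0.056 to 0.20), Nr3c2/Nr3c1 (-0.13 to 0.49) and Scnn1g/Scnn1b (-0.17 to 0.012). Members called between days, averaged over treatments, numbered 3 by limma-voom, 2 with an own term for day 2 libraries numbered 3 and 4, and 0 to 1 without 1 library. They numbered 0 with no filter, log2(FPKM + 1) or the detected genes as a covariate. A filter of 5 CPM gave 0 as well, but it removed the second Tsc22d3 row, at most 2.345 CPM, before any test. In control rats 1 member was called with the day 2 term. Member pairs called fell to 1 on log2(FPKM + 1) and to 1 with the day 2 libraries centred separately. The cause was not tested. Apart from Nr3c2 (median 10.33 CPM) and the second Tsc22d3 gene (0.147 CPM), each member had a median of at least 58.25 CPM. By the library total, before TMM scaling, 3 counts were worth at most 0.0895 CPM. Each group held 3 or 4 rats.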
